A study of Arabidopsis thaliana with 17 samples.

Results

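The 6 genes described here belong to the light signalling and photoprotection network of Arabidopsis thaliana: the transcription factor genes HY5 and HYH, the cryptochrome inhibitor genes BIC1 and BIC2, and the early light-induced protein genes ELIP1 and ELIP2. They were chosen by name, as 6 probe sets of the 22746 that are not controls on the Affymetrix ATH1 array. Earlier results of these data were known at that choice, so their medians, ranks and counts called, set against all probe sets, are descriptions. The platform table assigned 1 probe set each to HYH (AT3G17609), AT3G52740 and AT3G44450, and the latter pair are called BIC1 and BIC2 by the rule that chose them. The probe sets taken for HY5 (AT5G11260), ELIP1 (AT3G22840) and ELIP2 (AT4G14690) are not listed in that table, so these 3 names rest on the rule alone. All 6 were measured on all 17 arrays, and none was filtered out for low signal.

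The study treated soil-grown plants, 3 weeks old, with 0.5 mM salicylic acid (SA), a plant immune hormone, or with water, and sampled them after 16 hours. Every plant, controls included, carried the npr1 and sni1 mutations. NPR1 switches on genes that respond to SA, and SNI1 holds such genes down. The npr1 sni1 plants (here the double), the npr1 sni1 brca2a plants (the brca2a triple) and the npr1 sni1 ssn2 plants (the ssn2 triple) each had 3 water arrays, and had 3, 3 and 2 SA arrays in that order. BRCA2A acts in homologous recombination, and ssn2 is a suppressor mutation of sni1. No wild-type plants were among the samples, so the values describe SA in plants without NPR1 or SNI1 function. The series design names independent biological experiments as the source of the replicates. Some treatment entries of the ssn2 samples name brca2a, and 1 water sample has its entry under a pathogen tag. Titles and genotype entries were followed there.

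HY5 is a basic leucine zipper transcription factor that promotes light-dependent development and is degraded in darkness through the ubiquitin ligase COP1. HYH is its close homologue, with overlapping targets. The BIC proteins bind the blue-light receptors of the cryptochrome family and keep them from forming active oligomers, and light raises BIC transcripts, so they act as a feedback brake. ELIPs are chlorophyll-binding proteins of thylakoid membranes, related to the light-harvesting antenna, that accumulate in strong light, and their induction in light depends in part on HY5.

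Values are linear probe set intensities, compared as log2(intensity + 16), a scale that understates changes of dim probe sets. Array medians lay between 57.4 and 62.1. The double and the brca2a triple share 1 table of 12 arrays, the 5 ssn2 arrays have another, and no test was made across them. Intensities were not compared between probe sets. No one-gene probe set was found for NPR1, SNI1, BRCA2A or SSN2, so the labels could not be checked on the mutated genes. RCA, a Rubisco activase gene of green tissue, had 10000 to 14800 on all arrays, and the root hair gene EXPA7 had 18.5 to 33. The other root gene measured, PYK10, had 457 to 961. The root gene COBL9, the other green tissue markers and all 3 flower markers had no one-gene probe set.

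One array stood apart from its group. Replicate 2 of the double in water correlated at Pearson r = 0.981 and 0.980 with the other water arrays of its group, across all probe sets. With the SA arrays of the brca2a triple r was 0.987 to 0.990, and with those of the double 0.983. With the water arrays of the brca2a triple it was 0.979 to 0.982. All 6 genes were low on it, by 0.72 (HY5), 0.83 (HYH), 1.08 (BIC1), 1.45 (BIC2), 0.93 (ELIP1) and 0.99 (ELIP2) on the log2 scale below the mean of replicates 1 and 3. Many other probe sets were low on it too. Of the 677 probe sets whose SA mean lay at least 0.5 below that mean, 497 had replicate 2 within the lowest 25% of the way from the SA mean up to it, or under the SA mean. Probe sets raised by SA were not examined in this way. In a principal component analysis of the 12 arrays, replicate 2 lay at 28.8 on the second component, apart from all others (-13.5 to 12.9). Its ratio of 3-prime to 5-prime GAPDH control signal (log2) was 0.85, within the 0.58 to 1.16 of the 12 arrays. The array is kept under its label, and each comparison of the 6 genes within the 12 arrays is given with and without it. It was singled out from these same data, where it was low for all 6 genes, so adjusted p-values without it are descriptions. Leaving it out also shrank the shared spread for the 6 genes.

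**Figure D1:**
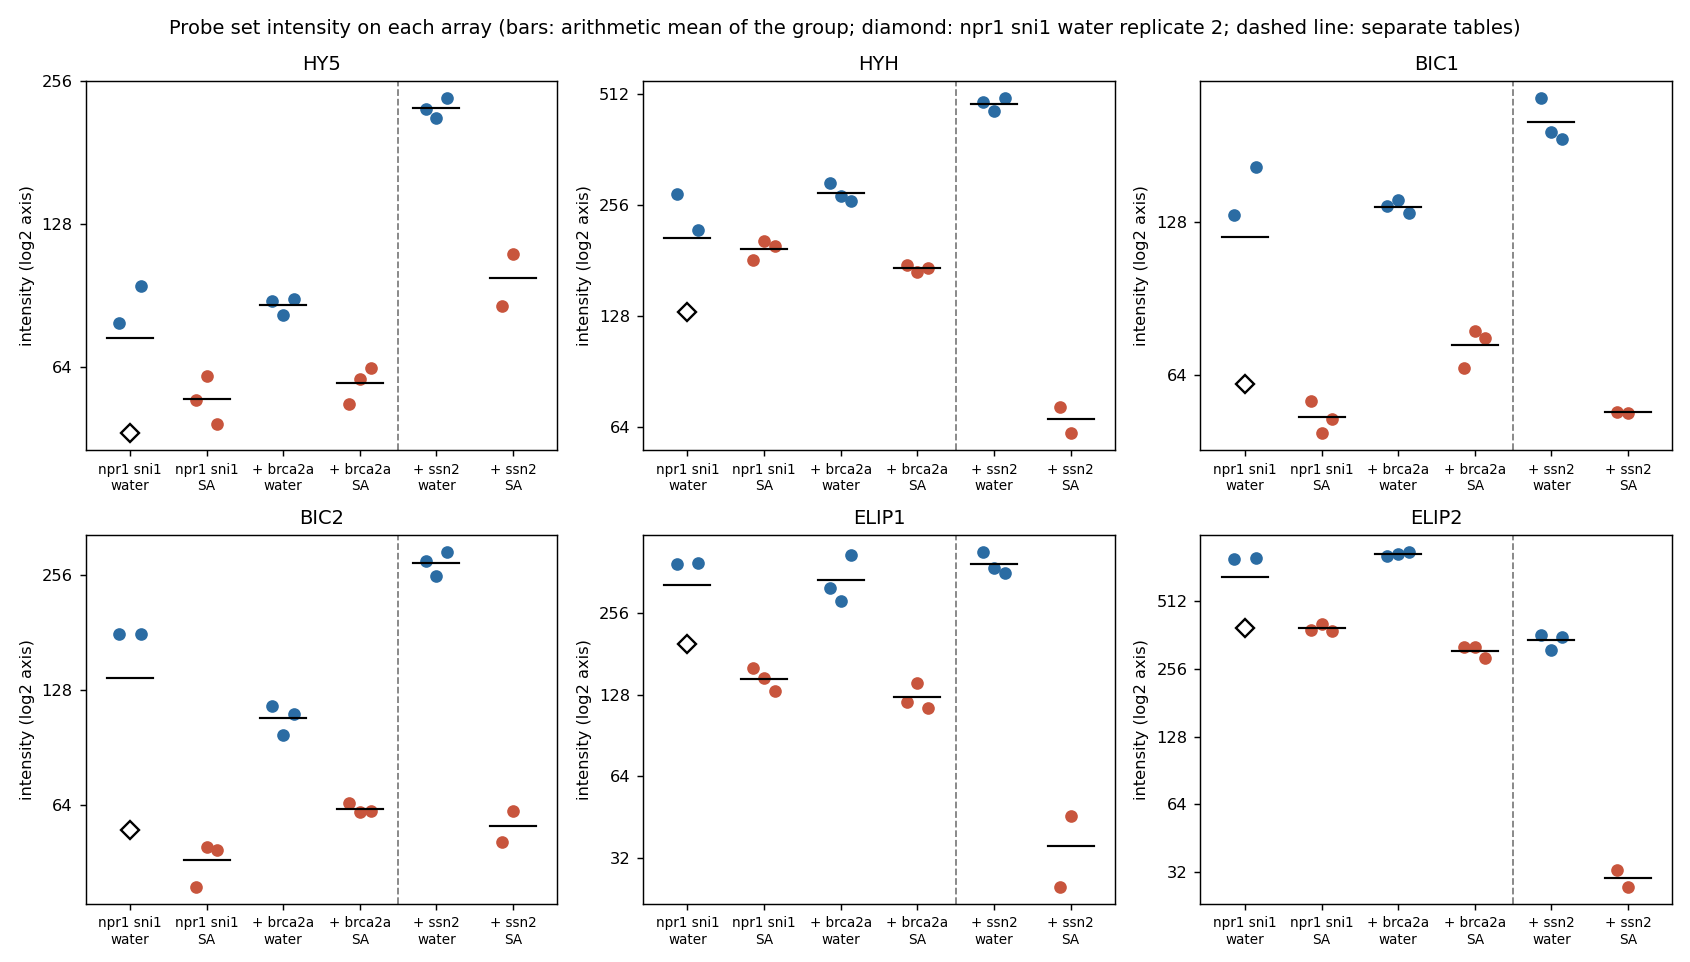
Intensity of the 6 probe sets on each of the 17 arrays (log2 axis). Blue is water, red is SA, and the black bar is the arithmetic mean of the group. The dashed line is the border between the tables, which were taken as normalized separately. The open diamond is replicate 2 of the double in water, which lies below both other water arrays of its group in every panel, and in the ssn2 triple all SA points lie below all water points.

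In the double, SA lowered BIC1, BIC2 and ELIP1, whereas HY5, HYH and ELIP2 did not pass the test. The genes that passed fell by 0.89 to 1.18 on the log2 scale (3 arrays against 3). Among all probe sets 2.54% passed downward in this comparison, and the median log2 difference was -0.78 over the 6 genes against -0.01 over all probe sets. Leaving out replicate 2 of the water arrays brought all 6 past the threshold, downward, where 10.3% of all probe sets passed downward and 24.3% had groups that did not overlap in this direction. With the double fitted without the brca2a triple none of the 6 passed (0.875% of all probe sets did, downward), at adjusted p = 0.22, 0.22 and 0.12 for BIC1, BIC2 and ELIP1.

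Of the transcription factor genes, HY5 had intensities of 79.5, 46.5 and 94.9 in water (replicates 1 to 3) and 54.7, 61.3 and 48.6 after SA. HYH had 274, 131 and 218 in water and 181, 204 and 197 after SA. For both genes water replicates 1 and 3 lay above all 3 SA arrays and replicate 2 below all 3, so the groups overlapped. The log2 difference was -0.30 ± 0.17 for HY5 (standard error of the fit; adjusted p = 0.39) and -0.04 ± 0.19 for HYH (adjusted p = 0.96). Without replicate 2 these were -0.54 ± 0.09 (adjusted p = 0.0015) and -0.31 ± 0.09 (adjusted p = 0.028). The sign of the HYH value turned without water replicate 1 (0.18), water replicate 3 (0.03) or SA replicate 1 (0.01).

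Of the 6 genes, the cryptochrome inhibitor gene BIC2 had the lowest log2 difference. BIC2 had intensities of 179, 55.3 and 179 in water against 39.1, 49.8 and 48.9 after SA, and BIC1 had 132, 61.5 and 165 against 57.1, 49.3 and 52.5. Every water array lay above every SA array for both genes, replicate 2 by a small margin. Groups without overlap in this direction were seen for 11.1% of all probe sets. BIC2 fell by 1.18 ± 0.31 (adjusted p = 0.046), the 6th lowest log2 difference of all probe sets, and BIC1 fell by 0.89 ± 0.24 (adjusted p = 0.048). Both calls ended when any 1 array other than water replicate 2 was left out (adjusted p up to 0.17 for BIC2 and 0.16 for BIC1). Without replicate 2 BIC2 fell by 1.66 ± 0.08 (adjusted p = 4.2e-07) and BIC1 by 1.25 ± 0.09 (adjusted p = 4.4e-06).

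Among the photoprotection genes, ELIP1 had 390.1, 198 and 392 in water and 161, 147 and 132 after SA. It fell by 1.02 ± 0.23 (adjusted p = 0.022), with every SA array below every water array. ELIP2 had 781, 389 and 793 in water and 381, 403 and 374 after SA. Water replicate 2 of ELIP2 lay among the SA arrays, and the log2 difference of -0.67 ± 0.21 did not pass (adjusted p = 0.094). The call of ELIP1 ended without water replicates 1 or 3 or any 1 SA array of the double (adjusted p up to 0.089). Without replicate 2 ELIP1 fell by 1.33 ± 0.14 (adjusted p = 7.1e-05) and ELIP2 by 1.0 ± 0.06 (adjusted p = 1.3e-06). This array was the lowest of the water group for all 6 genes, and the SD of log2 values was 0.43 to 0.84 in water and 0.05 to 0.14 after SA. Water replicates 1 and 3 differed too for HYH (274 and 218), BIC1 (132 and 165) and HY5 (79.5 and 94.9).

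With BRCA2A also mutated, SA lowered ELIP1 and ELIP2, the largest changes among the 6, and the other 4 genes were lower on all SA arrays than on all water arrays without passing the test. Downward calls made up 2.04% of all probe sets, and groups without overlap in this direction 16.9%. The median log2 difference was -0.72 over the 6 genes and -0.02 over all probe sets. ELIP2 had 803, 823 and 845 in water and 318, 319 and 284 after SA, and fell by 1.38 ± 0.21 (adjusted p = 0.0083). ELIP1 had 319, 285 and 419.9 in water and 121, 141 and 114 after SA, and fell by 1.33 ± 0.23 (adjusted p = 0.013; 0.053 without SA replicate 3). ELIP2 and ELIP1 ranked 10th and 13th from the lowest log2 difference of all probe sets.

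The other 4 genes had smaller differences in the brca2a triple. BIC1 had 137, 141 and 133 in water and 66.2, 78.4 and 75.8 after SA, a log2 difference of -0.78 ± 0.24 (adjusted p = 0.094). BIC2 had 117, 97.8 and 111 against 64.7, 61.4 and 61.8, a difference of -0.66 ± 0.31 (adjusted p = 0.25). HYH, the HY5 homologue, had 293, 269.8 and 262 against 176, 168 and 172, a difference of -0.63 ± 0.19 (adjusted p = 0.091). HY5 itself had 88, 82.4 and 89.2 against 53.6, 60.4 and 63.8, a difference of -0.45 ± 0.17 (adjusted p = 0.16). The replicates of these groups lay close together, with an SD of log2 values of at most 0.11 for these 4 genes. The standard errors come from a spread shared by the 4 groups of the table, and so take in the double in water, whose SD for these genes was 0.43 to 0.84. Without replicate 2 of that group, which is no part of this comparison, all 6 genes passed downward (7.52% of all probe sets did), with adjusted p = 0.0038 (HY5), 4.1e-04 (HYH), 1.2e-04 (BIC1), 2.2e-04 (BIC2), 7.3e-05 (ELIP1) and 3.8e-07 (ELIP2) at the same log2 differences. With the brca2a triple fitted alone all 6 passed downward as well, against 5.52% of all probe sets.

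**Figure D2:**
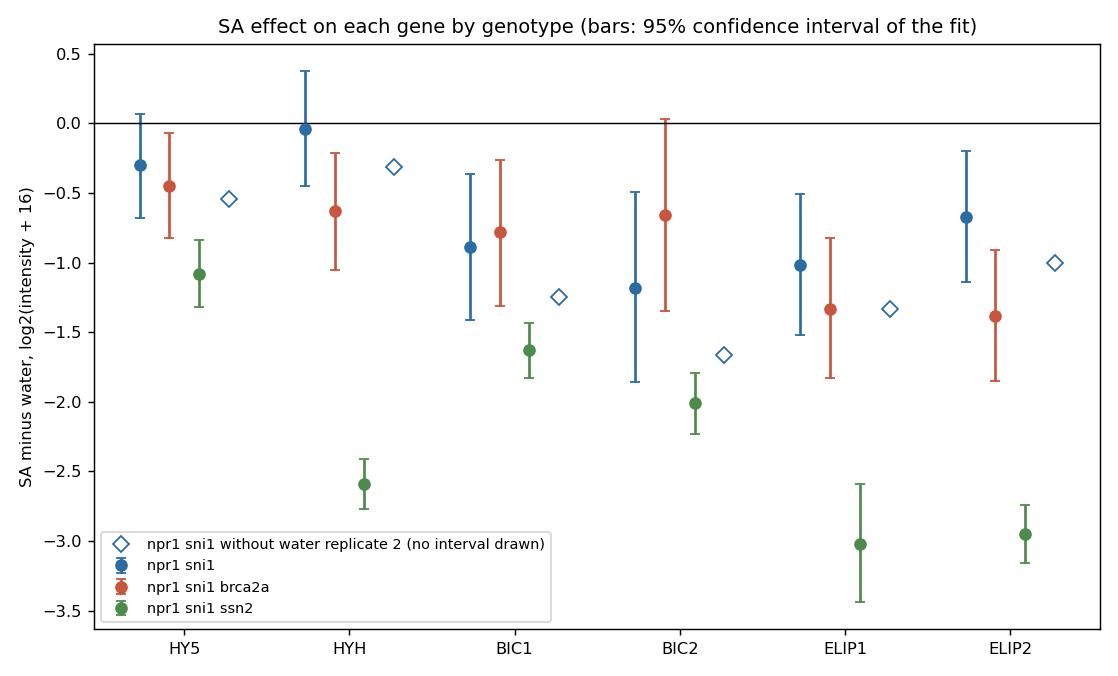
SA minus water on the log2(intensity + 16) scale for each gene in the 3 genotypes, with 95% confidence intervals of the fit; open diamonds give the double without water replicate 2. All values lie below 0, and those of the ssn2 triple, fitted in a table of its own, lie lowest for each gene, from -1.08 for HY5 to -3.02 for ELIP1.

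The test of whether the SA effect itself differed between the brca2a triple and the double passed for 0 of the 6 genes in limma over the 12 arrays, where 1.94% of all probe sets passed. Before adjustment limma's p was 0.038 for ELIP2 and 0.049 for HYH. The share of all probe sets with such unadjusted values was not counted. The difference (brca2a triple minus double) was -0.71 ± 0.30 for ELIP2 (95% interval -1.37 to -0.05, adjusted p = 0.36) and -0.59 ± 0.27 for HYH (-1.18 to 0.00, adjusted p = 0.4). Both values lie on the side of a larger drop in the brca2a triple. For BIC2 the difference was 0.52 ± 0.44 (-0.45 to 1.49, adjusted p = 0.71), in the other direction. HY5, BIC1 and ELIP1 had -0.15, 0.11 and -0.31 (adjusted p = 0.87, 0.94 and 0.78). These intervals are wide and do not show that the effects were alike. Without water replicate 2 of the double, BIC2 passed with 1.0 ± 0.11 (adjusted p = 4.9e-04) and ELIP2 with -0.38 ± 0.08 (adjusted p = 0.021), where 4.68% of all probe sets passed. In that fit the log2 SA effect on BIC2 was -1.66 in the double and -0.66 in the brca2a triple, and that on ELIP2 was -1.0 and -1.38. ELIP1 had a difference of 0.00 ± 0.19 there (adjusted p = 1) and BIC1 0.47 ± 0.12 (adjusted p = 0.052), while HY5 and HYH had 0.09 and -0.32 (adjusted p = 0.8 and 0.19).

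Between the genotypes in water, 0 of the 6 genes passed in limma, where 0.0747% of all probe sets did. Before adjustment limma's p was lowest for HYH (0.043), and the share of all probe sets with such unadjusted values was not counted. The log2 difference of the brca2a triple from the double was 0.43 ± 0.19 for HYH (adjusted p = 0.42), 0.39 ± 0.21 for ELIP2 (adjusted p = 0.5) and -0.17 ± 0.31 for BIC2 (adjusted p = 0.86). HY5, BIC1 and ELIP1 had 0.23, 0.27 and 0.10 (adjusted p = 0.61, 0.68 and 0.89). ELIP2 was higher on every brca2a triple array than on any water array of the double, as were 9.3% of all probe sets, and the other 5 genes overlapped. Without water replicate 2 of the double BIC2 was lower in the brca2a triple by 0.65 ± 0.08 (-0.65, adjusted p = 0.014), with 117, 97.8 and 111 against 179 on both remaining arrays, where 0.47% of all probe sets passed. The differences of HY5, BIC1, ELIP1 and ELIP2 were then -0.01, -0.09, -0.21 and 0.06, and that of HYH was 0.16 (adjusted p between 0.54 and 0.99).

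After SA, 0 of the 6 genes passed between the genotypes in limma, where 4.26% of all probe sets did, and none had an unadjusted p under 0.05. Both BIC genes had higher values on every brca2a triple array than on any array of the double, with log2 differences of 0.37 ± 0.24 for BIC1 (adjusted p = 0.57) and 0.35 ± 0.31 for BIC2 (adjusted p = 0.75). Groups without overlap were seen upward for 15.1% and downward for 10.8% of all probe sets. HYH and ELIP2 had lower values on every brca2a triple array, with -0.16 ± 0.19 (adjusted p = 0.84) and -0.32 ± 0.21 (adjusted p = 0.59). HY5 (0.09) and ELIP1 (-0.21) overlapped between the genotypes. No array of this comparison is the one that stood apart, yet leaving that array out of the shared spread brought BIC1, BIC2 and ELIP2 past the threshold at the same differences (adjusted p = 0.013, 0.014 and 0.0031), where 8.92% of all probe sets passed. HY5, HYH and ELIP1 did not pass without it (adjusted p = 0.67, 0.3 and 0.43). The 2 groups fitted alone gave the same 3 calls (adjusted p = 0.016, 0.027 and 0.017), against 8.97% of all probe sets.

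**Figure D3:**
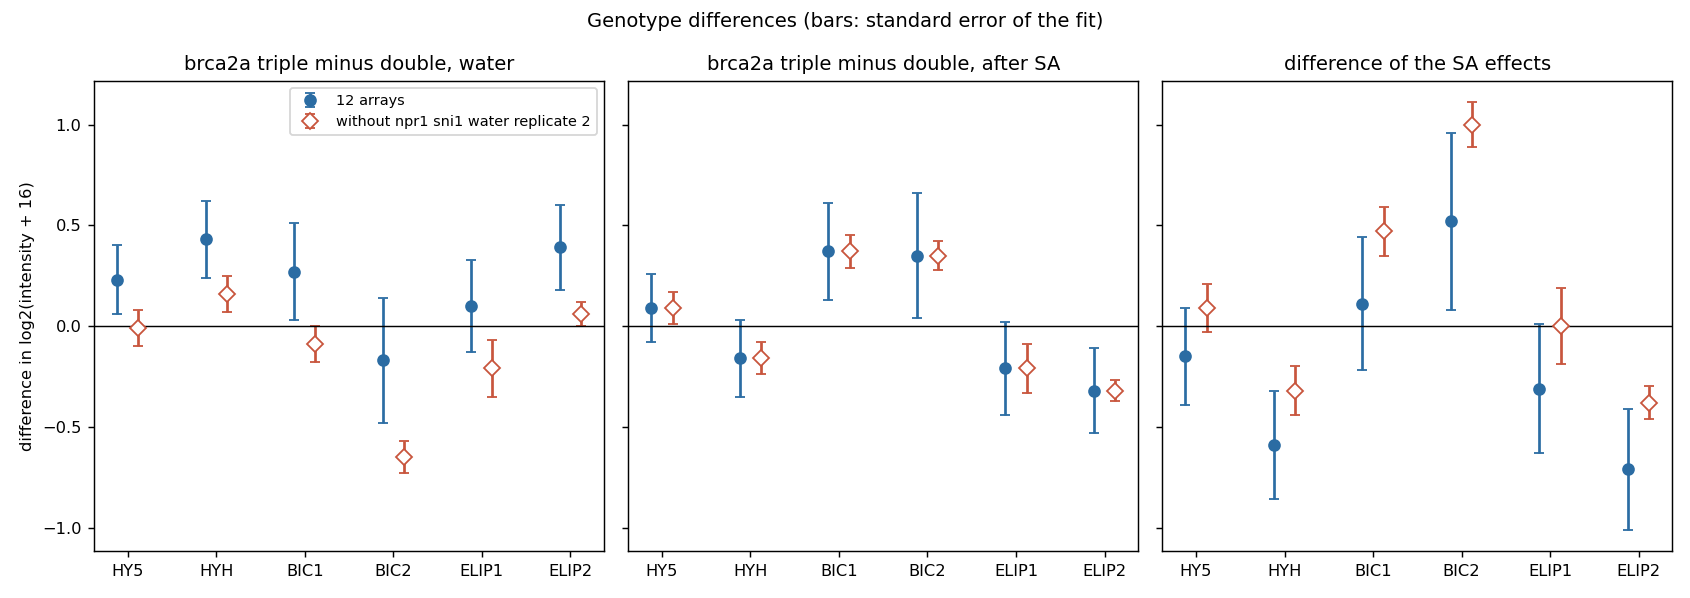
Differences between the brca2a triple and the double in water, after SA, and between their SA effects (log2 scale, bars are standard errors of the fit), over 12 arrays (filled) and without water replicate 2 of the double (open). The after-SA differences keep their values and lose width without that array, while the water difference of BIC2 moves from -0.17 to -0.65 and its difference of SA effects from 0.52 to 1.0.

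In the ssn2 triple SA lowered all 6 genes, with log2 differences from -1.08 to -3.02 (2 SA arrays against 3 water arrays). Mean intensity after SA was 0.0901 of that in water for ELIP1, 0.0887 for ELIP2 and 0.139 for HYH, and HY5 changed least (0.438). This comparison changed many genes: 14.5% of all probe sets passed downward and 18.8% upward. The median log2 difference was -2.30 over the 6 genes and 0.00 over all probe sets, of which 5% lay below -0.64. All 6 genes had SA arrays below all water arrays, as did 25.2% of all probe sets. In these whole-plant samples, fewer cells of a type and less RNA per cell cannot be told apart.

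HYH had intensities of 486, 459 and 499 in water and 72.5 and 61.4 after SA. It fell by 2.59 ± 0.07 (adjusted p = 7.1e-06), whereas HY5, with 224, 215 and 236 in water and 86.2 and 111 after SA, fell by 1.08 ± 0.10 (adjusted p = 4.7e-04). The 95% intervals of the homologues, -2.77 to -2.41 and -1.32 to -0.84, did not overlap, although the difference between the probe sets was not itself tested. BIC2 had 278, 254 and 295 in water and 51.2 and 61.7 after SA, and fell by 2.01 ± 0.09 (adjusted p = 3.1e-05). BIC1 had 225, 193 and 187 in water and 54.3 and 54 after SA, and fell by 1.63 ± 0.08 (adjusted p = 5.2e-05). After SA both BIC probe sets lay near the array medians of 60 to 60.1.

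ELIP1 had 434, 378 and 362 in water and 24.9 and 45.5 after SA, and fell by 3.02 ± 0.17 (adjusted p = 8.2e-05). ELIP2 had 362, 309 and 352 in water and 32.9 and 27.6 after SA, and fell by 2.95 ± 0.09 (adjusted p = 7.6e-06). These SA values lie below the array medians, where the added 16 shrinks a difference: the ratio of mean intensity, water over SA, was 11.1 for ELIP1 and 11.3 for ELIP2, against 8.09 and 7.72 on the scale of the test. ELIP1 and ELIP2 ranked 42nd and 45th from the lowest of 22746 log2 differences, HYH 68th, BIC2 136th, BIC1 213th and HY5 456th. All 6 calls held when each of the 5 arrays was left out in turn (adjusted p up to 0.0042). With 1 SA array left, that array is assumed to vary like the water group.

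A control ratio and a root marker moved with SA in the ssn2 triple. The log2 ratio of 3-prime to 5-prime GAPDH signal was 0.21 to 0.28 in water and 0.35 to 0.41 after SA, while the actin ratio overlapped between the groups. Of the root markers, PYK10 fell by 0.47 ± 0.05 (adjusted p = 8.5e-04), EXPA7 stayed at 18.5 to 24.3, and RCA had a log2 difference of -0.09 that did not pass. The part of RNA quality or of tissue makeup in the result was not tested. The SA effects of the ssn2 triple and of the other genotypes were not tested against each other, because no array of the double lies in the ssn2 table, and genotype and experiment cannot be told apart there.

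**Figure D4:**
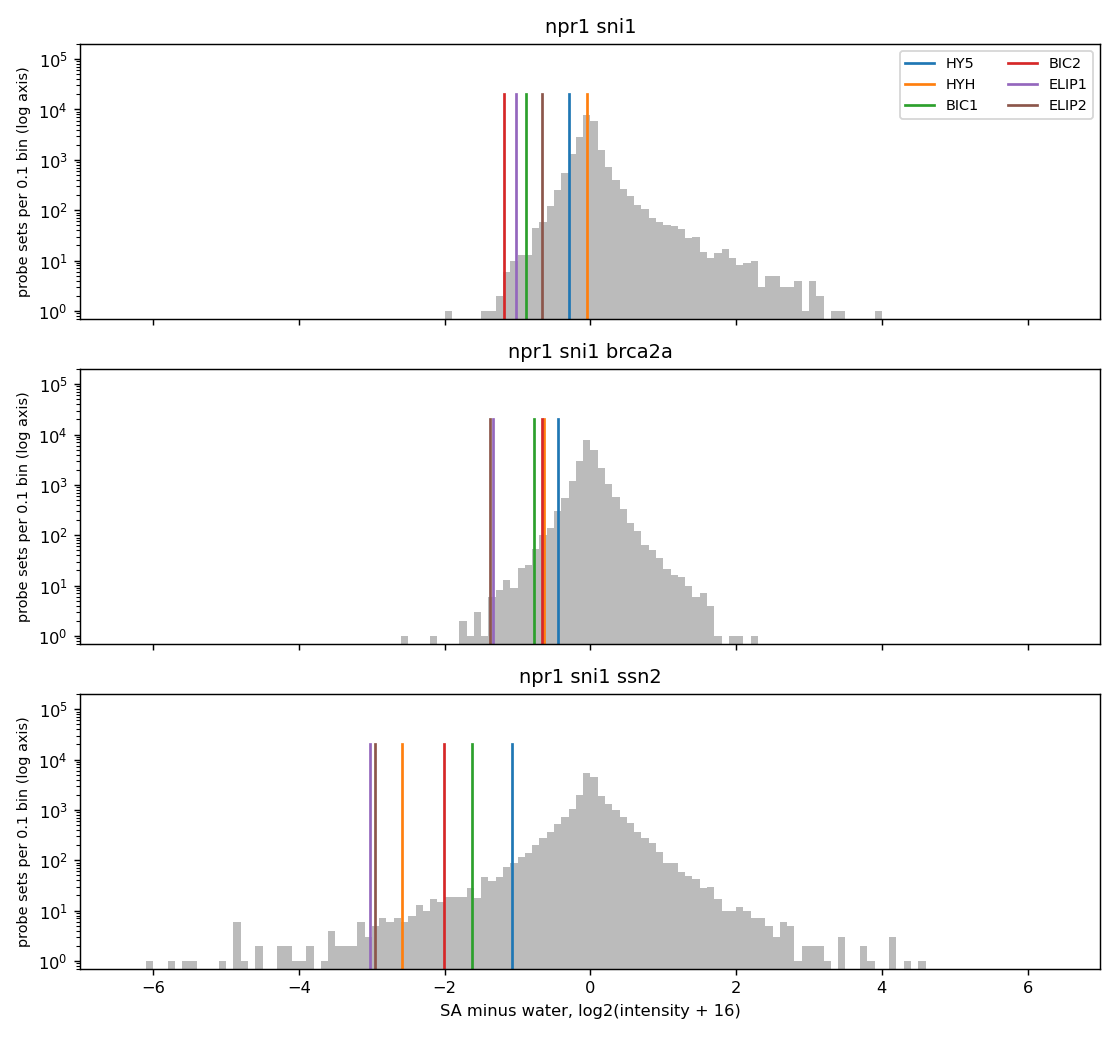
Distribution of the log2 SA effect over all 22746 probe sets in the 3 genotypes (grey, probe sets per bin of 0.1, log axis), with the 6 genes as coloured lines. All 6 lines lie left of 0 in each panel, between -1.18 and -0.04 in the double, -1.38 and -0.45 in the brca2a triple, and -3.02 and -1.08 in the ssn2 triple, whose distribution is also the widest.

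Of 74 further genes of light signalling (photoreceptors, COP1 and SPA repressors, PIF factors, B-box factors, other light factors, targets of HY5 and UV-B, and ELIP relatives), 3 had a one-gene probe set, so the pathway around the 6 genes was barely covered. FHL, which carries phytochrome A to the nucleus together with its homologue FHY1, rose in the double by 0.55 ± 0.09 (adjusted p = 0.0035) and in the ssn2 triple by 0.26 ± 0.06 (adjusted p = 0.021), and after SA its level in the brca2a triple lay under that of the double (-0.40, adjusted p = 0.033). Neither the SA effect on FHL in the brca2a triple (0.22, adjusted p = 0.2) nor the difference of SA effects (-0.34, adjusted p = 0.3) passed. FHL was dim, at 9.54 to 30.7 on all arrays, and its calls in the double and after SA held without water replicate 2 of the double (adjusted p = 0.0011 and 0.015). LIL3:1, a light-harvesting-like protein gene related to the ELIPs, fell by 0.29 ± 0.06 in the double (adjusted p = 0.021, and 0.0056 without that array) and by 0.31 ± 0.05 in the ssn2 triple (adjusted p = 0.0051), and had -0.01 in the brca2a triple. LIL3:2 had -0.11 in the double, -0.05 in the brca2a triple and 0.12 in the ssn2 triple and did not pass (adjusted p = 0.11, 0.51 and 0.22). Without water replicate 2 of the double it passed in the double (adjusted p = 0.035).

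The named genes most like the BIC pair over the 12 arrays, by mean Pearson r of log2 values, were AT5G59130 (0.967), AT5G38510 (0.967), AT4G24700 (0.966), AT4G12830 (0.958), AT4G28290 (0.957) and AT1G69523 (0.955). Those most like HY5 and HYH were AT3G09440 (0.941), AT3G03770 (0.937), AT5G12110 (0.935), AT1G73630 (0.933), the chaperonin gene Cpn60beta2 (0.933) and AT1G48750 (0.930). These correlations are a description over 12 arrays that share 4 groups and the array that stood apart; without it they lay between 0.912 and 0.970. The ssn2 arrays had no part in this choice. All genes chosen, however, had negative log2 SA differences in both the double and the brca2a triple. The share over all probe sets is therefore no matched background for their SA effects in the ssn2 triple. In the ssn2 triple, of the genes like the BIC pair, AT4G28290 fell by 2.83 ± 0.06 (adjusted p = 2.5e-06), AT4G24700 by 1.90 ± 0.09 (adjusted p = 3.3e-05) and AT4G12830 by 0.43 ± 0.11 (adjusted p = 0.029). AT5G38510 rose by 0.32 ± 0.08 (adjusted p = 0.026), and AT5G59130 (0.04) and AT1G69523 (-0.12) did not pass. Of the genes like HY5 and HYH, 5 of 6 fell with SA in the ssn2 triple, where 14.5% of all probe sets passed downward, from 0.82 for AT1G73630 (-0.82) to 3.55 for AT5G12110 (-3.55), and AT1G48750 did not pass (-0.41, adjusted p = 0.058).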

How the data were processed

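Affymetrix ATH1 arrays measured RNA of 17 samples, with groups taken from titles and genotype entries. The authors deposited linear probe set intensities, made with PLIER per the submitters' processing notes, with settings not given in the sources used here. The series value table, as deposited by the authors, holds log2 intensities with a constant subtracted per probe set. For the 12 arrays it is the probe set median (largest gap 1.98e-06). For the ssn2 arrays log2 intensity minus table value varied over arrays by at most 2.02e-06 in any probe set. From the intensities, log2(intensity + 16) was computed for 22746 probe sets (22810 less 64 controls), and limma 3.58.1 in R 4.3.3 (lmFit, eBayes) was fitted across all of them, over 12 arrays in 4 groups and over the 5 ssn2 arrays. Every adjusted p is limma's two-sided p, adjusted by Benjamini-Hochberg over all probe sets of that comparison, with a threshold of 0.05, and ± is the standard error. The number of arrays limits the precision. Scripts were tested on simulated data.

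The platform table names 14016 probe sets, 13513 with 1 gene and 503 with several, and 8730 tested probe sets are not listed in it. RefSeq TAIR10.1 gave loci for 13436. Genes named beyond the 6 were listed light signalling genes, tissue markers, and the 6 genes closest by mean Pearson r to each of the BIC pair and the HY5 and HYH pair. The 6 genes and the lists were chosen with earlier results of these data known. Alternatives were another pseudocount, median centring, quantile normalization, the brighter probe sets alone (those above the median mean signal), groups fitted alone, a replicate block, the series value table and leaving out each array. No sequence is shown.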

Additional observations from a re-analysis of the deposited data

How the results depend on the processing

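The ssn2 calls held for 6 of 6 genes under every alternative run, with 5899 to 7091 probe sets past the threshold when an array was left out. In the 12-array table the calls rest on few arrays. With an array left out, the number of the 6 genes past the threshold ranged from 0 to 6 for SA in the double, 1 to 6 for SA in the brca2a triple, 0 to 2 for the difference of SA effects, 0 to 1 between genotypes in water and 0 to 3 after SA. The numbers of all probe sets ranged from 1090 to 4464, 379 to 3495, 329 to 1065, 1 to 107 and 662 to 2028 in the same order. The highest of each came without water replicate 2 of the double. The SA effects in the brca2a triple also passed for HYH without water replicate 1 of the double (adjusted p = 0.036) and for BIC1 without its replicate 3 (adjusted p = 0.047).

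With the compared groups fitted alone, 0 in place of 3 genes passed for SA in the double (939 probe sets in all against 1700), 6 in place of 2 for SA in the brca2a triple (2599 against 1057), and 3 in place of 0 after SA (2040 against 970), while 2 in place of 17 probe sets passed in water. The brighter probe sets alone gave 4 genes for SA in the brca2a triple, HYH and BIC1 joining (adjusted p = 0.048 for both). There 1131 probe sets passed in all, 498 of them downward, against 1057 and 464 in the main fit. Only probe sets above the median mean signal were tested in that setting, and a larger share of them was called than in the main fit. The series value table gave 11 probe sets in water. The cause was not tested.

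Same-numbered arrays of different groups deviated together no more than others, so the numbers were not taken as pairs. Their r ran from -0.33 to 0.16 over 20 pairs, 1 of them over 0.1. Arrays of unlike number had r from -0.17 to 0.30 over 40 pairs, 6 of them over 0.1. With the replicate number as a block, 1 gene in place of 3 passed for SA in the double, ELIP1 (adjusted p = 0.032), with BIC1 at 0.061 and BIC2 at 0.053 and 1568 probe sets in all against 1700, and 3 probe sets in place of 17 passed in water. The block changed no other call of the 6 genes.

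Signs turned under left-out arrays only, for values that had not passed. The log2 values ranged from -0.31 to 0.18 for HYH under SA in the double. For the difference of SA effects they ranged from -0.32 to 0.09 for HY5, -0.14 to 0.47 for BIC1 and -0.47 to 0.00 for ELIP1. In water between genotypes they ranged from -0.01 to 0.41 for HY5, -0.09 to 0.52 for BIC1, -0.65 to 0.07 for BIC2 and -0.21 to 0.26 for ELIP1.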

Other observations

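AFR, an F-box protein gene that acts in phytochrome A signalling, belongs to 7 genes found by light words in their symbols or synonyms, a list made after the files were seen. AFR had 424 to 483 in water and 51.2 to 74.9 after SA in the ssn2 triple, and fell by 2.61 ± 0.13 (adjusted p = 5.3e-05). In the double AFR had 202 to 586 in water and 233 to 242 after SA, and its log2 difference of -0.70 ± 0.29 missed the threshold (adjusted p = 0.22, and 1.1e-06 without water replicate 2). In the brca2a triple AFR had 465 to 519 in water and 306 to 336 after SA. Its log2 difference of -0.60 ± 0.29 there did not pass (adjusted p = 0.27, and 1.1e-04 without water replicate 2 of the double). In the ssn2 triple 3 of the 7 rose and 2 fell, where 18.8% of all probe sets passed upward and 14.5% downward.

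Of 10 nuclear genes with photosystem or light-harvesting symbols, also listed after the files were seen, LHCB4.2, an antenna protein gene of photosystem II, fell by 1.63 ± 0.07 with SA in the ssn2 triple (adjusted p = 2.9e-05). Its intensities were 6060 to 6750 in water and 1950 to 2130 after SA. Its homologue LHCB4.1 rose by 0.26 ± 0.08 (adjusted p = 0.047). In that genotype 1 of the 10 rose and 4 fell, against the same 18.8% upward and 14.5% downward over all probe sets, with a median log2 difference of -0.08 (0.00 over all probe sets). LHCB4.2 had -0.06 in the double and 0.11 in the brca2a triple, and neither passed (adjusted p = 0.47 and 0.15, and 0.42 and 0.12 without water replicate 2 of the double).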
